A study of Mus musculus with 33 samples.

Results

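The 5 V kappa genes described here are IGKV6-32, IGKV7-33, IGKV8-34, IGKV1-35 and IGKV18-36, which lie around the only H3K27ac peak found between the first and the last V gene of the mouse immunoglobulin kappa light chain locus (Igk). They were chosen by a measured value, the position of that peak in pro-B cells, out of 163 V kappa genes listed in the Igk tables. The rule of choice did not use their levels in recombination, but earlier results of these data were known when it was made. Their use in recombination was then followed in 20 Igk VDJ-seq libraries. VDJ-seq captures and sequences V-to-J joints from genomic DNA, and each value is the percentage of a library's V kappa joints that used a given V gene. Of the 20 libraries, 4 came from wild-type and 4 from mutant pre-B cells, and 6 came from pro-B cells of each genotype. All cells were sorted directly from the bone marrow of C57BL/6 mice aged 4 to 5 weeks, as B220+ IgM- IgD- cells that were Kit+ CD25- (pro-B) or Kit- CD25+ (pre-B). Wild-type mice were Wapl+/+, and mutant mice were Wapl∆P1,2/∆P1,2, which carry homozygous germline deletions in every cell, of P1, a site in the Wapl promoter bound by Pax5, and of a region downstream of the gene with another Pax5 site, P2. The H3K27ac peaks came from 1 ChIP-seq library of ex vivo sorted pro-B cells of Rag1(Cre/Cre) mice, which lack Rag1 and so do not recombine Igk, and this library has no replicate.

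A kappa light chain gene is made when the Rag1 and Rag2 recombinase joins 1 of the many V kappa genes to a J kappa segment, mostly at the pre-B cell stage and at a low rate in pro-B cells. The recombinase cuts at a recombination signal sequence (RSS) beside each segment, made of a heptamer, a spacer and a nonamer, and V kappa genes carry the form with the short spacer. Distant V genes are brought to the J kappa segments by folding of the locus, in which the cohesin ring extrudes chromatin loops. Wapl releases cohesin from chromatin, and in B cell progenitors Pax5 represses Wapl, so the mutant keeps Wapl higher than normal. H3K27ac is an acetylation mark of active promoters and enhancers.

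The peak spans chr6:69989959-69992717 (mm9), which is 2759 bp, and 58.6% of the 17935 peaks of the library were shorter. The V kappa cluster of 3.15 Mb held this 1 peak, or 0.318 peaks per Mb, against 6.39 per Mb over the whole chromosome. The next peak towards the J kappa segments began 666 kb away, 4.47 kb beyond the last V gene, and the next on the other side lay 2770 kb away. No V kappa gene overlapped the peak, which sat between IGKV8-34 and IGKV1-35 in a stretch where the annotation names 1 gene, the miRNA gene AC154006.1 (chr6:69977976-69978085), outside the peak. As a check of the cells, 8 of 9 pro-B cell genes had a peak within 1 kb of a transcript start (Cd79b did not), as did 0 of 4 T cell and 0 of 4 myeloid genes. Klf1, an erythroid gene, had a peak as well, and its part in the peak list was not tested. The percentages of V genes hold no marker genes, so the sorted identity of the VDJ-seq cells could not be checked.

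The nearest member was IGKV8-34 (chr6:69994106-69994672), whose RSS end lies 1.39 kb from the peak's edge. IGKV7-33 (chr6:70008626-70009193) followed at 15.9 kb, and IGKV6-32 (chr6:70024018-70024578) at 31.3 kb on the same side, which is the side of the J kappa segments. On the other, distal side, IGKV1-35 (chr6:69960943-69961667) lay at 28.3 kb and IGKV18-36 (chr6:69942459-69942971) at 47.0 kb. These are the 5 V genes nearest to the peak. The next ones out were IGKV8-31 at 63.1 kb and IGKV5-37 at 76.1 kb. All 5 are on the reverse strand, as are 85 of 162 V genes with a position, whereas the 5 J kappa segments, 680 kb from the peak, are on the forward strand. Such opposite genes rearrange by inversion of the DNA between them. The study's gene list classes 4 of the 5 as functional and IGKV1-35 as an open reading frame only. Each of the 4 genes named in the mouse annotation has 2 exons, a leader and a V exon, at the same coordinates, and IGKV8-34 is not named there. IGKV8-34 was closest to IGKV8-30, with 86.2% identity over 565 aligned bases, and the best-scoring matches of the other 4 had between 75.2% and 77.0% identity, so no member has a near-identical copy among the V genes.

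The RSS of each member began with the first base after the annotated gene. The sequences are shown because the recombinase reads them, with the heptamer and the nonamer in capitals around the 12-base spacer, read on the reverse strand of mm9 at chr6:70023990-70024017, chr6:70008598-70008625, chr6:69994078-69994105, chr6:69960915-69960942 and chr6:69942431-69942458 in this order.
IGKV6-32: CACAGTGcttcagcctcctACACAAACC
IGKV7-33: CACAGTGcttcagcctcctACACAAACC
IGKV8-34: CACAGTGctttagccttctACACAAACC
IGKV1-35: CACAGTGatatagacactaAAAAAAAAA
IGKV18-36: CACAGTGattcaacatgtcACAAAAACC

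All 5 heptamers were the consensus CACAGTG, as were those of 108 of 162 V kappa genes (66.7%). IGKV18-36 also had the consensus nonamer ACAAAAACC and so matched at 16 of 16 heptamer and nonamer bases, as did 37 V genes (22.8%). IGKV6-32, IGKV7-33 and IGKV8-34 matched at 15, which 53.7% of V genes equalled or passed. IGKV1-35 matched at 13, with a run of A in place of the nonamer, and 81.5% of V genes had at least as many matches. The RSSs of IGKV6-32 and IGKV7-33 were the same in all 28 bases, and that of IGKV8-34 differed from them at 2 bases, both in the spacer.

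The identical RSSs went with unlike levels. In wild-type pre-B cells, IGKV6-32 was used in 1.74% ± 0.0893 of V kappa joints (SD, n = 4) and IGKV7-33 in 0.163% ± 0.0250, a ratio of means of 10.7, and between 9.46 and 14.0 within single libraries. In all, 7 functional V genes carried this same RSS. Their means in wild-type pre-B cells ran from 0.163% for IGKV7-33 over 0.632% for IGKV8-19, 0.653% for IGKV8-28, 0.987% for IGKV6-17 and 1.45% for IGKV8-30 to 1.74% for IGKV6-32 and 1.85% for IGKV8-16. IGKV18-36, with the full consensus, stood at 0.227% ± 0.0363, whereas the 32 functional V genes with 16 matches had a median of 1.01% and a range from 0.0388% to 2.94%. The plot of level against RSS match shows both points.

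**Figure D1:**
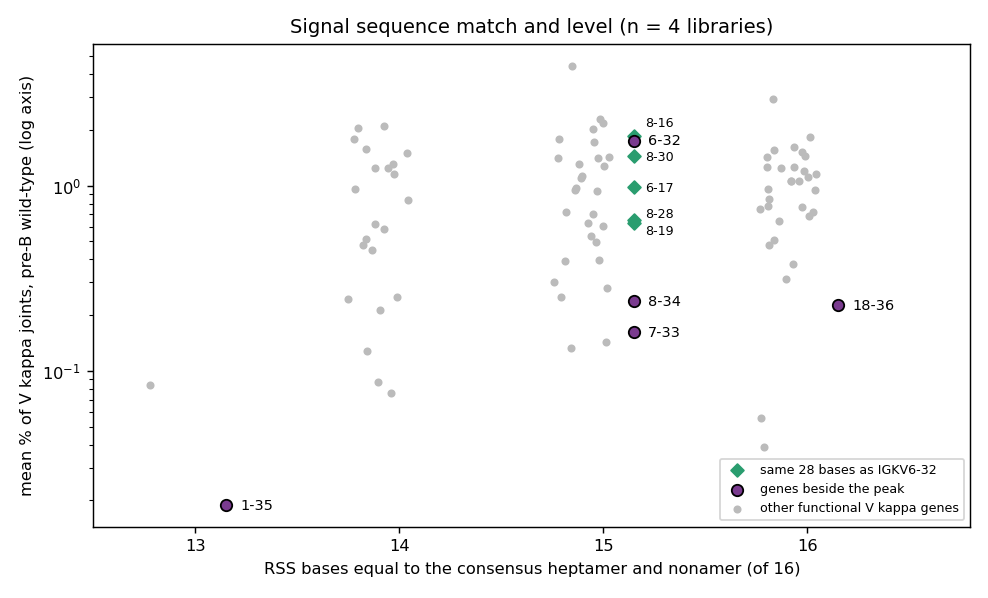
Mean percentage of V kappa joints in wild-type pre-B cells (vertical axis, log scale, 4 libraries) against the number of RSS bases that equal the consensus heptamer and nonamer (horizontal axis, of 16; points are spread sideways for legibility). Purple circles are the 5 genes beside the peak (IGKV1-35 is not classed as functional), green diamonds are the other genes with the RSS of IGKV6-32 and grey points are the other functional V genes; genes with the same 28 bases run from 0.163% to 1.85%.

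Upstream of the genes, the octamer ATTTGCAT, a binding site of Oct factors in immunoglobulin promoters, was searched on both strands in the 250 bases before each gene's start. It was present before 94 of 162 V genes (58.0%), among them 1 of the 5 members, IGKV1-35. Of the V genes next to the members, none of the 5 on the J kappa side held it, and each of the 5 on the distal side did. Its last 7 bases, TTTGCAT, were found before 123 V genes (75.9%) and 4 members, all but IGKV6-32. The best match in each member is shown in capitals with 10 bases on each side, at 91 to 106 bases before the gene's start on the reverse strand (chr6:70024661-70024688, chr6:70009275-70009302, chr6:69994746-69994773, chr6:69961756-69961783 and chr6:69943050-69943077).
IGKV6-32: ttggtgactgCTTTGCGTagattcttgc
IGKV7-33: ttgctgactgCTTTGCATaagtctgtcc
IGKV8-34: ctgctgactgTTTTGCATgggcacctca
IGKV1-35: ggggcagggtATTTGCATattgttccct
IGKV18-36: tccccaactgCTTTGCATatttatgaga

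IGKV6-32, the most used member, had the poorest match, with 6 of 8 bases, and IGKV1-35, the least used, the full octamer. A match of letters is a description and does not show binding. The peak itself held 1 octamer, here in capitals in 60 bases of the forward strand (chr6:69990967-69991026), and 13.1% of the 956 peaks of the chromosome held one in a window of 2759 bases, the length of this peak, around their centre.
Peak: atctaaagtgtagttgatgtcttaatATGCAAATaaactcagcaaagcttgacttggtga

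Depth differed between the cell types. Every value of the 5 genes was a whole multiple of a step derived for its library, within 0.001 of a step. The rule that set the step allows fractions of it at other V genes, so it need not be the library's smallest. The V kappa joints of a library amounted to between 27178 and 56642 such steps in pre-B cells, and to between 164 and 6892 in pro-B cells. One step was worth at most 0.00368% of joints in a pre-B library and between 0.0145% and 0.0840% in 11 of the pro-B libraries. Wild-type pro-B replicate 2, with 164 steps of 0.610% each, stood apart (replicate numbers follow the order of the samples and only name libraries). A step may be a read or a deduplicated molecule, which is not given in the sources used here, so no counting interval was derived. A pro-B value of 0 for a rare V gene is therefore a listed 0 and not an absence.

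In pre-B cells the mutation went with opposite changes at IGKV6-32 on one hand and IGKV7-33 and IGKV18-36 on the other. IGKV6-32 stood at 1.81%, 1.77%, 1.78% and 1.61% of joints in the 4 wild-type libraries and at 2.00%, 1.90%, 1.96% and 2.01% in the 4 mutant ones. All mutant values lay above all wild-type values, and the means were 1.74% ± 0.0893 and 1.97% ± 0.0478 (SD, n = 4 each), a 1.13-fold rise. On the scale of log2(percent + 0.05) the change was 0.17 ± 0.07 (SE), with an adjusted p of 0.0369 by limma. The call was lost when wild-type replicate 2 or 4 or mutant replicate 3 or 4 was left out (adjusted p up to 0.107), with array weights (adjusted p = 0.0528), with Holm's adjustment (adjusted p = 0.918) and with libraries centred on their median gene (adjusted p = 0.0548).

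IGKV7-33 stood at 0.185%, 0.168%, 0.127% and 0.170% in wild-type and at 0.0660%, 0.0478%, 0.0902% and 0.0898% in mutant pre-B cells. The groups did not overlap, and the mean fell 2.22-fold, from 0.163% ± 0.0250 to 0.0734% ± 0.0205 (log2 change -0.79 ± 0.13, adjusted p = 7.32e-05 by limma). IGKV18-36 moved alike, from 0.240%, 0.227%, 0.264% and 0.178% to 0.132%, 0.103%, 0.155% and 0.0718%. Again every mutant library was below every wild-type library, and the fall was 1.97-fold (log2 change -0.76 ± 0.15, adjusted p = 0.000262 by limma). For these 3 genes the two-sided exact permutation test of the mean percentages gave p = 0.0286, the smallest that 4 against 4 libraries allow. How many other V genes reached that p was not counted, while limma called 67.3% of the 107 tested. None of the 3 was called in a fit of all 20 libraries, in which the more variable pro-B libraries entered the estimate of the spread (limma's adjusted p = 0.477 for IGKV7-33 and IGKV18-36 and 0.763 for IGKV6-32). The log2 change of IGKV7-33 was -1.07 with 0.01 added in place of 0.05 and -0.21 with 0.5, and that of IGKV18-36 -0.96 and -0.24, each with an adjusted p below the threshold.

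IGKV8-34, the gene next to the peak, overlapped between the genotypes in pre-B cells. It had 0.300%, 0.245%, 0.209% and 0.202% in wild-type and 0.144%, 0.162%, 0.266% and 0.223% in mutant libraries. The log2 change was -0.23 (95% interval -0.54 to 0.08, adjusted p = 0.167 by limma), and it rested on single libraries, at -0.12 without mutant replicate 1, -0.13 without wild-type replicate 1 and -0.36 without mutant replicate 3, the last with an adjusted p of 0.0350. The difference had opposite signs in the 2 series of experiment numbers. In the series numbered from 161 the means of 2 libraries each were 0.245% in mutant and 0.206% in wild-type cells, and in that numbered from 70 they were 0.153% and 0.273%. IGKV1-35 was under the filter on low values, with between 0.00781% and 0.0341% in wild-type and between 0.00736% and 0.0107% in mutant pre-B libraries, which is 2 to 14 steps. The groups overlapped, the two-sided exact permutation test of the mean percentages gave p = 0.114, and limma without the filter did not call the gene.

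Within both series, IGKV6-32 was higher and IGKV7-33 and IGKV18-36 were lower in the mutant. For IGKV6-32 the means were 1.98% against 1.70% in the first series and 1.95% against 1.79% in the second. For IGKV7-33 they were 0.0900% against 0.149% and 0.0568% against 0.177%, and for IGKV18-36 0.113% against 0.221% and 0.117% against 0.234%. The sum of the 5 genes did not follow its parts, at 2.39% ± 0.149 in wild-type and 2.36% ± 0.108 in mutant pre-B cells. IGKV6-32 made up between 70.8% and 74.5% of that sum in wild-type and between 78.9% and 85.6% in mutant libraries.

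Changes in pre-B cells were widespread, and the members were not unusual in being called. Of 107 V genes tested 72 passed (67.3%), 23 higher (21.5%) and 49 lower (45.8%), while 3 of the 4 tested members passed, 1 higher and 2 lower. IGKV4-52 and IGKV4-54 had identical results in every comparison and are each counted among the V genes tested. Here neither was called, and their change is the median one. The median V gene changed by -0.18 on the log2 scale, so relative to it IGKV6-32 was 0.35 higher, IGKV8-34 lay at -0.05, IGKV18-36 at -0.58 and IGKV7-33 at -0.61. Only 7 and 8 of the 107 tested V genes had a lower change than IGKV7-33 and IGKV18-36, respectively. Of the 5 neighbours on each side, 4 per side passed the filter on low values. On the J kappa side 1 of 4 and on the distal side 3 of 4 were called lower and none higher, with median log2 changes of -0.13 and -0.52.

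**Figure D2:**
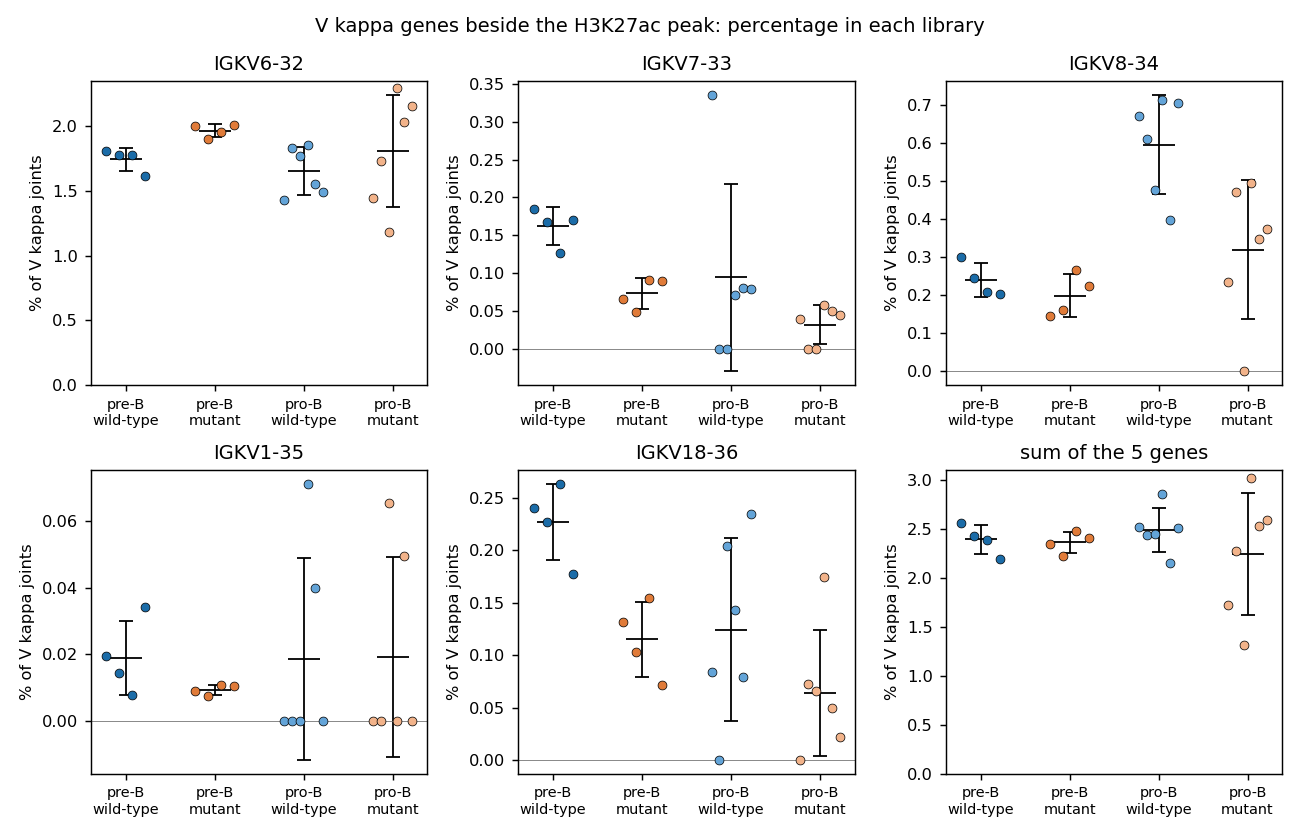
Percentage of V kappa joints (vertical axes) for each of the 5 genes and their sum in the 4 groups, with 1 point per library (4 in each pre-B group and 6 in each pro-B group), the mean as a horizontal line and the SD as bars. IGKV7-33 and IGKV18-36 fall without overlap from wild-type to mutant pre-B cells, IGKV6-32 rises, and IGKV8-34 is highest in wild-type pro-B cells.

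In pro-B cells none of the 4 tested members passed limma's test between the genotypes, where 26.0% of 104 V genes did, and 1 of the 4, IGKV8-34, had an unadjusted p below 0.05, as did 40 of the 104. IGKV6-32 ranged from 1.43% over a median of 1.66% to 1.85% in 6 wild-type libraries and from 1.18% over 1.88% to 2.29% in 6 mutant ones. The mutant libraries spread around the wild-type ones, and the log2 change was 0.10 (95% interval -0.31 to 0.50). It ran from 0.021 without mutant replicate 4 to 0.21 without mutant replicate 3, and was 0.22 with array weights and 0.43 with centred libraries, none of them called (limma's adjusted p from 0.172 to 0.963). The sign depended on the series, with 2.16% in mutant against 1.63% in wild-type cells in the series numbered from 161 and 1.45% against 1.68% in the series numbered from 82, each over 3 libraries a group.

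IGKV8-34 ranged from 0.398% over a median of 0.641% to 0.713% in wild-type and from 0 over 0.360% to 0.493% in mutant pro-B cells. The groups overlapped, although 4 of the 6 wild-type values lay above every mutant value. The means were 0.596% ± 0.130 and 0.320% ± 0.182 (SD, n = 6 each), and the log2 change of -1.10 ± 0.51 had an adjusted p of 0.122 by limma. In the fit of all 20 libraries the gene was called (adjusted p = 0.0489). The two-sided exact permutation test of the mean percentages gave an unadjusted p = 0.0108 (n = 6 each). Without the shallow wild-type replicate 2, in which the gene's 0.610% is a single step, the log2 change was -1.09 with an adjusted p of 0.0406 by limma. Without mutant replicate 3, the library in which the gene is listed at 0, the log2 change was -0.58 with an adjusted p of 0.188. The mutant mean was the lower one in both series, at 0.405% against 0.605% and 0.235% against 0.586%.

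IGKV7-33 and IGKV18-36 had too few steps in pro-B cells for a firm comparison, at most 4 and 12 in any library. IGKV7-33 was listed at 0 in 2 of 6 libraries of each genotype, with medians of 0.0748% in wild-type and 0.0415% in mutant cells, and IGKV18-36 at 0 in 1 of 6, with medians of 0.113% and 0.0576%. Their log2 changes were -0.52 (95% interval -1.57 to 0.54) and -0.57 (95% interval -1.62 to 0.48), which include both no change and the falls seen in pre-B cells. The change of IGKV7-33 rested on wild-type replicate 1, with 0.336%. Without that library the gene was under the filter on low values, and its log2 difference, added after the values were seen and with no test, was -0.16. The change of IGKV18-36 was -0.89 without wild-type replicate 2 and -0.36 without mutant replicate 1, and it was not called without any 1 library. IGKV1-35 was listed at 0 in 4 of 6 libraries of each genotype and reached 0.0713% in 1 library, which was a single step there. The median V gene changed by -0.26.

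Whether the mutation acted differently at the 2 stages was tested directly in a fit of all 20 libraries. Of 106 V genes 2 passed (1.89%), and none of the 4 tested members did, nor did any have an unadjusted p below 0.05 by limma. The difference of the log2 changes, pro-B minus pre-B, was -0.07 (95% interval -0.55 to 0.40) at IGKV6-32 and -0.87 (95% interval -2.28 to 0.55) at IGKV8-34. At IGKV7-33 it was 0.27 (95% interval -1.01 to 1.56) and at IGKV18-36 it was 0.19 (95% interval -1.09 to 1.48). These intervals are wide enough to hold differences as large as the effects themselves, so they do not show that the effects were equal. The difference at IGKV8-34 was -0.35 without mutant pro-B replicate 3, and that at IGKV7-33 was 0.63 without wild-type pro-B replicate 1 and 0.042 without wild-type pro-B replicate 2 or 3.

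Between the cell types, IGKV8-34 was the member that differed in the wild-type. Its 6 pro-B libraries, from 0.398% to 0.713%, all lay above the 4 pre-B libraries, from 0.202% to 0.300%, and the mean of 0.596% ± 0.130 (n = 6) was 2.49 times that of 0.239% ± 0.0449 (n = 4). The log2 change was 1.15 ± 0.34, with an adjusted p of 0.0348 by limma, where 19.0% of 105 V genes passed and 10.5% were higher in pro-B cells. Of the 105 genes 101 had a lower change, and the median gene changed by -0.65. The 6 pro-B libraries held only 164 to 2514 steps, and a listed 0 there lowers a gene's mean of logarithms. The 0.610% of IGKV8-34 in pro-B replicate 2 was a single step. How far depth shaped this rank and median was not tested. The two-sided exact permutation test gave p = 0.00952, the smallest that 6 against 4 libraries allow. How many other V genes reached that p was not counted. The adjusted call did not hold with each library left out. It was lost in 7 of 10 cases, for wild-type pro-B replicates 1, 4 and 6 and for each of the 4 pre-B replicates, with adjusted p up to 0.118 and a log2 change between 1.08 and 1.25. With the series as a covariate the adjusted p was 0.234, with Holm's adjustment 0.477 and in the fit of all 20 libraries 0.0709, and within the series numbered from 161 the 3 pro-B libraries averaged 0.605% against 0.206% in 2 pre-B libraries.

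The other tested members were not called, which makes 1 of 4. IGKV6-32 had 1.65% ± 0.186 in pro-B and 1.74% ± 0.0893 in pre-B cells (log2 change -0.08, 95% interval -0.37 to 0.21). This small change turned positive, to 0.27, when libraries were centred on the median gene. IGKV7-33 and IGKV18-36 had log2 changes of -0.92 and -0.86, with adjusted p of 0.226 and 0.224 by limma. Leaving out 1 library gave -1.28 (without pro-B replicate 1) to -0.69 for IGKV7-33 and -1.04 to -0.54 (without pro-B replicate 2) for IGKV18-36, with no call. IGKV18-36 was called with array weights (log2 change -0.70, limma's adjusted p = 0.0413). None of the 7 tested neighbours passed limma's test either, and 2 of them had an unadjusted p below 0.05. Their median log2 change was -1.06 against -0.47 over the 4 tested members. The -1.06 was that of IGKV8-30, with means of 0.988% in pro-B and 1.45% in pre-B cells. Its lowest pro-B value was 0, as was that of IGKV8-28, IGKV5-37, IGKV5-39 and IGKV12-40, and of the members IGKV7-33 and IGKV18-36. In pro-B replicate 2, with 164 steps, 102 of the 163 V genes were at 0. A listed 0 lowers a mean of logarithms, and its part in the gap was not tested.

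In the mutant, 54.0% of 100 V genes differed between pro-B and pre-B cells, 42 of them lower in pro-B cells, and none of the 3 tested members did, also at an unadjusted p of 0.05 by limma. IGKV6-32 had 1.81% ± 0.433 in pro-B and 1.97% ± 0.0478 in pre-B cells, a log2 change of -0.15 (95% interval -0.51 to 0.20) that became 0.45 with centred libraries (adjusted p = 0.0445 by limma). Within the series numbered from 161, the only one with both cell types, the sign was also opposite. The means there were 2.16% in 3 pro-B and 1.98% in 2 pre-B libraries. IGKV8-34 had 0.320% ± 0.182 against 0.199% ± 0.0563, and its log2 change of 0.28 (95% interval -0.83 to 1.39) rested on mutant pro-B replicate 3, the only one listed at 0. Without that library, the change was 0.79 with an adjusted p of 0.0196, and without any 1 of the others it was between 0.10 and 0.40. IGKV18-36 had a log2 change of -0.67 (adjusted p = 0.124), which was -0.89 with an adjusted p of 0.0213 without mutant pro-B replicate 4 and also -0.89 with array weights (adjusted p = 0.00862), but -0.06 with centred libraries (adjusted p = 0.901). IGKV7-33 was under the filter on low values, and its mean percentages of 0.0318% and 0.0734% gave an unadjusted p of 0.0286 in the exact permutation test. Of the 7 tested neighbours, 6 were lower in pro-B cells, and the median log2 changes were -0.87 over the neighbours, -0.15 over the 3 members and -0.51 over all genes. The difference between these lists was not tested.

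**Figure D3:**
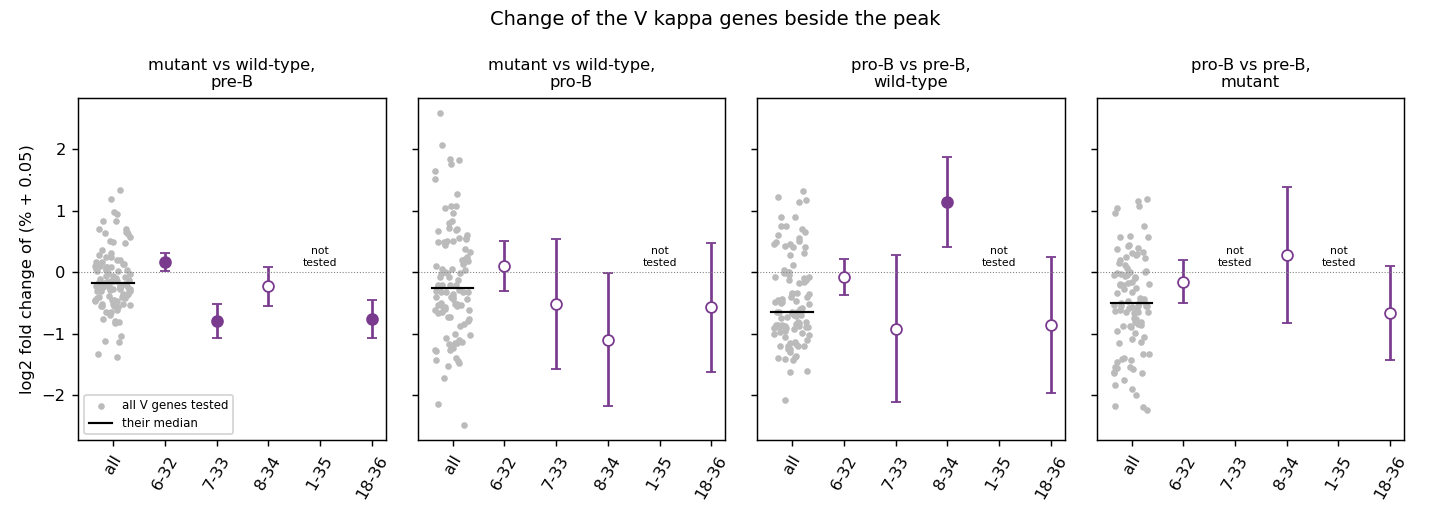
Log2 fold change of (percent + 0.05) in the 4 comparisons (vertical axis), for all V genes tested (grey points, with their median as a line) and for the members (purple, with the 95% interval of the limma fit; filled where the adjusted p was below 0.05). Filled points are IGKV6-32, IGKV7-33 and IGKV18-36 in pre-B cells and IGKV8-34 in wild-type cells, and "not tested" marks genes under the filter on low values.

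Across all groups, the order of the 5 genes changed little at the top. IGKV6-32 was the highest of the 5 in 20 of 20 libraries and ranked between 7th and 14th among all V genes by its group means. IGKV8-34 was second in 18 of 20 libraries. In wild-type pre-B cells it was hardly above IGKV18-36 (0.239% ± 0.0449 and 0.227% ± 0.0363), a difference smaller than the spread between libraries, whereas in wild-type pro-B cells it was above it in 6 of 6 libraries, with a ratio of means of 4.79. IGKV18-36 exceeded IGKV7-33 in 4 of 4 wild-type and 3 of 4 mutant pre-B libraries but in 3 of 6 pro-B libraries of each genotype, so their order there could not be told. IGKV1-35 was on its own the lowest in 13 of 20.

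The 4 group means of IGKV6-32 lay within 0.25 on the log2 scale. That was the second smallest range among 106 V genes, whose median range was 1.17, a comparison chosen after the values were seen. With libraries centred on their median gene, also tried after the values were seen, the range of IGKV6-32 was 0.80, the 34th smallest, against a median of 1.06. The other tested members ranged over 1.38 to 1.44 without centring and over 0.74 to 1.71 with it. In the shape of their 4 group means, IGKV7-33 and IGKV18-36 were each other's nearest gene among the 106, with a root mean square difference of 0.02 on the log2 scale, followed in both cases by IGKV9-120 and IGKV12-38 (0.09 to 0.14). That likeness depended on single libraries. The difference ran from 0.011 to 0.19 with each library left out, a check added after the values were seen, and the 2 genes were no longer each other's nearest in 5 of 20 cases. The value of 0.19 came without wild-type pro-B replicate 1, where IGKV18-36 was the fifth nearest gene. Nearest to IGKV6-32 were IGKV4-61, IGKV4-51 and IGKV4-80, at 0.11 to 0.17, and nearest to IGKV8-34 were IGKV1-135 at 0.17, IGKV1-117 at 0.31 and IGKV15-103 at 0.32. These are likenesses over 4 points and no more than that.

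Against the relatives of the same family, IGKV6-32 was above and IGKV8-34 below the family median in pre-B cells. The 8 other family 6 genes had a median of 0.383% and a maximum of 0.987% in wild-type pre-B cells, both under the 1.74% of IGKV6-32. The 9 other family 8 genes with a mean of at least 0.05% had a median of 1.28% and ran from 0.20% to 1.85%, against 0.239% for IGKV8-34, and 3 more relatives were under 0.05%. In wild-type pro-B cells 8 of the 12 other family 8 genes reached 0.05%, with a median of 0.773% and a lowest value of 0.244%, against 0.596% for IGKV8-34. Of these, IGKV8-16, IGKV8-23-1, IGKV8-27 and IGKV8-30 were above IGKV8-34, and IGKV8-19, IGKV8-21, IGKV8-24 and IGKV8-28 were below it. The relatives under 0.05% were also below it and are left out of this median. Whether IGKV8-34 lay under its family median in these cells therefore depended on the filter. In the cell type comparison in the mutant, all 6 tested relatives of family 6 and all 9 of family 8 were lower in pro-B cells by limma, with median log2 changes of -1.60 and -1.56, while IGKV6-32 and IGKV8-34 had -0.15 and 0.28 and were not called, a contrast that was not itself tested. Families 7 and 18 have no other gene in the list.

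Along the chromosome, 1 high gene stood beside 4 low ones. In wild-type pre-B cells the 5 members summed to 2.39%, of which 1.74% was IGKV6-32, against 3.98% for the 5 neighbours on the J kappa side and 2.59% for the 5 on the distal side. In mutant pro-B cells the 3 sums of means were 2.24%, 2.47% and 0.506%. Each side includes 1 pseudogene, IGKV8-31 or IGKV5-40-1, that was listed at 0 in all 20 libraries. IGKV12-40 on the distal side is also classed as a pseudogene, and it gave 0.800% of the distal sum in wild-type pre-B cells. The distance to the peak did not order the members, since the nearest, IGKV8-34, had 0.239% in wild-type pre-B cells and the fourth nearest, IGKV6-32, had the most.

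**Figure D4:**
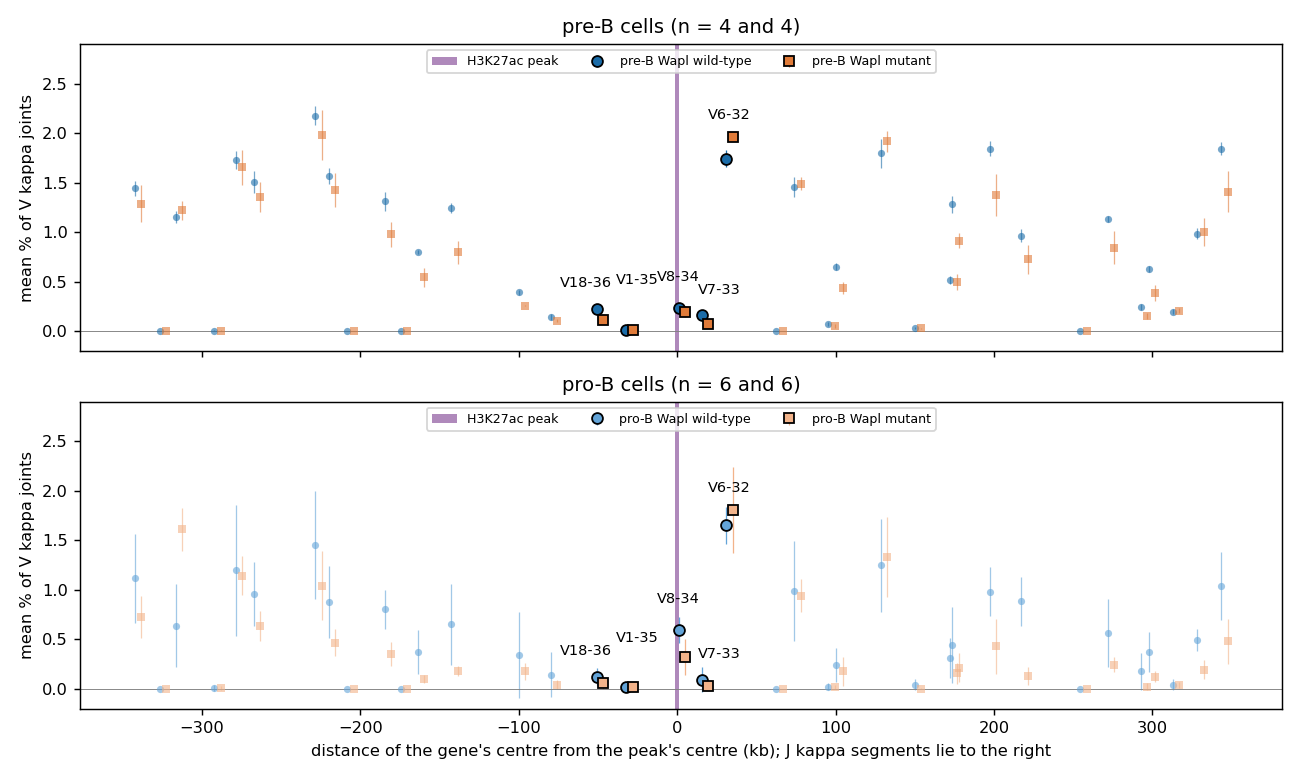
Mean percentage of V kappa joints (vertical axes, bars are the SD) of V genes within 350 kb of the peak, by the distance of the gene's centre from the peak's centre in kb (horizontal axis), in pre-B cells (top, 4 libraries a group) and pro-B cells (bottom, 6 a group). Circles are wild-type and squares mutant, members are outlined and named, and the purple band is the peak; IGKV6-32 stands at 1.65% to 1.97% in all groups and the other 4 members under 0.6%.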

How the data were processed

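Igk VDJ-seq was done on genomic DNA of sorted cells, with adapters that carry molecular identifiers, and sequenced on a MiSeq. The authors deposited 1 table per library, with the percent of an unnamed total for each V kappa gene. The handling of reads matching more than 1 V gene is not given in the sources used here. The deposited percent values were divided by their sum over the 163 V kappa genes of the library and rescaled to percent of V kappa joints. The sums amounted to 27178 to 56642 of the steps described above in pre-B libraries and 164 to 6892 in pro-B libraries, which is the only sign of depth. The authors also deposited H3K27ac peaks as positions on mm9, all with a score of 0, so peaks could not be ranked.

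Groups came from the labels. The study calls its VDJ-seq experiments independent. Whether libraries came from separate mice is not labelled, so p-values measure the spread between libraries. limma 3.58.1 (R 4.3.3, empirical Bayes with trend) was run on log2(percent + 0.05) for V genes averaging 0.05% or more in the libraries of the comparison, with only the compared groups in each fit and Benjamini-Hochberg adjustment over all V genes tested at 0.05. The script was tested on simulated data. Positions and classes came from the study's list of V genes (162 of 163 with a position) and GENCODE M1 on NCBIM37 (mm9), and sequences from that genome. The RSS was the best match to heptamer and nonamer in the 60 bases after the gene's end. V genes were aligned with blastn 2.17.0.

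The members, neighbours (5 per side), families and alternatives were chosen with earlier results of these data known. Genes named are the 5 members, neighbours and family members as counts, the 3 V genes nearest in group means, and those sharing an RSS, the last chosen after the sequences were seen. Igh VDJ-seq and Hi-C were not analysed here. Some marker genes and a surface marker of the sort are not reported here.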

Additional observations from a re-analysis of the deposited data

Results flagged for a closer look

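Of 20 sets of libraries (5 genes in 4 groups), 1 held a library far from the others by Dixon's criterion, which chance alone gives in about 1 of 20. IGKV7-33 stood at 0.336% in wild-type pro-B replicate 1, against 0 to 0.0796% in the other 5 libraries of the group. The gap was 0.763 of the group's range, above the critical value of 0.625, and the value amounts to 4 steps.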

How the results depend on the processing

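No paired analysis was possible because the labels give the libraries no replicate numbers. The series of experiment numbers was tried as a covariate. IGKV7-33 and IGKV18-36 kept their fall in pre-B cells without any 1 library and under each of the 11 alternatives in which they were tested (a minimum mean of 0.2% removed both). They passed the threshold in all of these but the fit of all 20 libraries, in which pro-B libraries entered the estimate of the spread (limma's adjusted p = 0.477). That fit called 7 V genes and 0 members in pre-B cells, 1 member (IGKV8-34) in pro-B cells, 0 members in the wild-type and 33 V genes in the mutant cell type comparison. A minimum mean of 0.2% left 2 members to test in pre-B cells, of which 1 was called. Holm's adjustment called 44, 7, 3 and 27 V genes in the 4 comparisons (pre-B and pro-B genotype effect, wild-type and mutant cell types) and 0 members in the third. Array weights called 49 V genes in pro-B cells, 63 and 2 members (IGKV8-34 and IGKV18-36) in the wild-type cell types, 1 member (IGKV18-36) in the mutant cell types and 19 V genes in the interaction. The series as covariate left 3 V genes and 0 members in the wild-type and 19 V genes in the mutant cell types. Percentages without a logarithm called 39 V genes in the wild-type cell types and 6 in the interaction. Without the 2 most used V genes 13 and 1 were called there, and centring left 1 in the interaction and called 1 member (IGKV6-32) in the mutant cell types.

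IGKV6-32 changed sign in the cell type comparisons, to 0.10 without the 2 most used genes and 0.27 with centring in the wild-type, and to 0.12 with the series and 0.45 with centring in the mutant. In the interaction it did so with array weights (0.10), centring (0.33) and without mutant pro-B replicate 3 (0.037), and IGKV18-36 with array weights (-0.20), without wild-type pro-B replicate 2 (-0.13) and without mutant pro-B replicate 4 (-0.03). The cause of these shifts was not tested.

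Leaving out 1 library gave 59 to 76 V genes and 2 to 3 members for the pre-B genotype effect, 16 (without mutant replicate 2) to 49 V genes (without wild-type replicate 2) and 0 to 1 members for the pro-B effect, 3 to 44 V genes and 0 to 1 members for the wild-type cell types, 44 to 58 and 0 to 1 for the mutant ones and 2 to 10 V genes and no member for the interaction, where the log2 difference ran from -0.15 to 0.037 at IGKV6-32, from -0.13 to 0.40 at IGKV18-36, from 0.042 to 0.63 at IGKV7-33 and from -1.04 to -0.35 at IGKV8-34. In the wild-type cell types, the highest count came without pro-B replicate 2, 12 without pro-B replicate 4, and 6, 4, 3 and 3 without pre-B replicates 1 to 4. Centre-to-centre distances gave the same 5 nearest genes. Pro-B depth, at most 12 steps for IGKV18-36 and 4 for IGKV7-33, limits what could be seen there.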
